A study of Mus musculus with 16 samples.

Results

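Mitochondrial ribosomal proteins are the nuclear-encoded proteins that are imported into mitochondria and assembled there, with RNA made from the mitochondrial genome, into the ribosome of that organelle. Members were chosen as the protein-coding genes whose GENCODE M21 symbol is Mrpl or Mrps followed by a number, which gave 78 of the 55536 annotated genes in the gene count table, 49 named Mrpl and 29 named Mrps. All 78 had enough counts to be tested. The study asked what Tardbp, the gene of the RNA-binding protein TDP-43, does in costimulated CD8+ T cells. CD8+ T cells from OT-1 Tg C57BL/6J mice, whose T cell receptor sees the SIINFEKL peptide of ovalbumin, were electroporated with Cas9 and either a scrambled guide (Control gRNA, 8 libraries) or a guide to Tardbp (Tardbp gRNA, 8 libraries) and transferred into C57BL/6J recipients. All recipients of both groups received the antigen together with the agonist antibodies anti-OX40 and anti-41BB, and CD8+ T cells were sorted from spleen and lymph nodes after 4 days by the labels, so no library comes from cells without stimulation. The labels give neither the age of the mice nor whether libraries came from separate animals. The paper gives age only as a range for all its mice. It states that these cells came from 8 individual recipients and gives n = 8 per group, without naming the mouse of each library. The p-values measure the spread between these libraries. Electroporated cells can be a mixture of edited and unedited cells, and in bulk RNA fewer cells of a type cannot be told apart from less RNA per cell.

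The mitochondrial ribosome translates only the mRNAs of the mitochondrial genome, all of which code for core subunits of the respiratory chain and of ATP synthase. Its small subunit reads the mRNA and its large subunit joins the amino acids and feeds the new protein through an exit tunnel into the inner membrane. Part of its proteins are descendants of bacterial ribosomal proteins and part were added in mitochondria. Activated T cells enlarge their mitochondria as they begin to divide, and new respiratory chain complexes need mitochondrial translation.

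The targeted gene was lower in every Tardbp gRNA library. Tardbp was measured between 172 and 207 CPM (median 198) in Control gRNA and between 110.4 and 147 CPM (median 136) in Tardbp gRNA, where CPM is the count after scaling to the size of the library with TMM (trimmed mean of M values) factors. The groups did not overlap, the Tardbp gRNA mean was 70.1% of the Control gRNA mean, and the log2 fold change was -0.51 (SE 0.056, edgeR quasi-likelihood test, Benjamini-Hochberg adjusted p = 8.07e-07). On log2 CPM the exact permutation p (two-sided) was 0.000155, which no design of 8 against 8 libraries can go below. These values are of mRNA and do not give the amount of protein. The paper reports, by immunoblot of pooled cells, that cells given the Tardbp guide made no Tardbp protein. Libraries held 73649630 to 93893357 counts across Control gRNA and 56016533 to 94801105 across Tardbp gRNA. The deposited RNA concentration, given without a unit, was 34.9 to 197 for Control gRNA and 10.1 to 24.0 in Tardbp gRNA, so that RNA yield and guide cannot be told apart in these libraries. The CD8 T cell markers were present in every library, with a summed level of 4112 to 4989 CPM over Control gRNA and 5419 to 6705 CPM in Tardbp gRNA. Of these, 7 of 8 were called higher, beside 23.5% of all tested genes. The remaining marker went the other way without a call, at a log2 fold change of -0.46. B cell and CD4 T cell markers summed to at most 18.4 and 0.601 CPM. The summed myeloid level reached 42.9 CPM over Control gRNA and 89.1 CPM in Tardbp gRNA. The summed red cell level ran from 0.442 to 17.4 CPM over the Control gRNA libraries and from 9.02 to 181 CPM in Tardbp gRNA, with 4 of 4 tested genes called higher, and the part of any of these cells in the results was not tested.

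The mitochondrial ribosomal protein mRNAs did not move as a block. Of the 78, 42 (53.8%) passed an adjusted p under 0.05 in the edgeR test over all genes and are termed called, 21 higher and 21 lower in Tardbp gRNA. Among all 16650 tested genes the same call was made for 46.7%, with 23.5% higher and 23.3% lower. The members' log2 fold changes ran from -0.49 to 0.46 with a median of -0.022, beside a median of 0.046 over all tested genes. The size of a typical member's difference, without its sign, was 0.15, against 0.30 over all tested genes, and the typical SE was 0.055 against 0.11. No member changed by 1 or more on the log2 scale, as 6.01% of all tested genes did with a call. For 10 members (12.8%) the groups did not overlap, 6 of them higher and 4 lower, beside 16.9% of all tested genes, 6.61% higher and 10.3% lower. The split of calls depended on the scaling: with upper quartile factors it was 29 higher and 9 lower at a member median of 0.050, and with genes under a mean log2 CPM of 3 left out it was 29 and 12 at a median of 0.031. The 10 called members with the lowest and the 10 with the highest log2 fold changes kept their sign in every fit, these included.

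**Figure D1:**
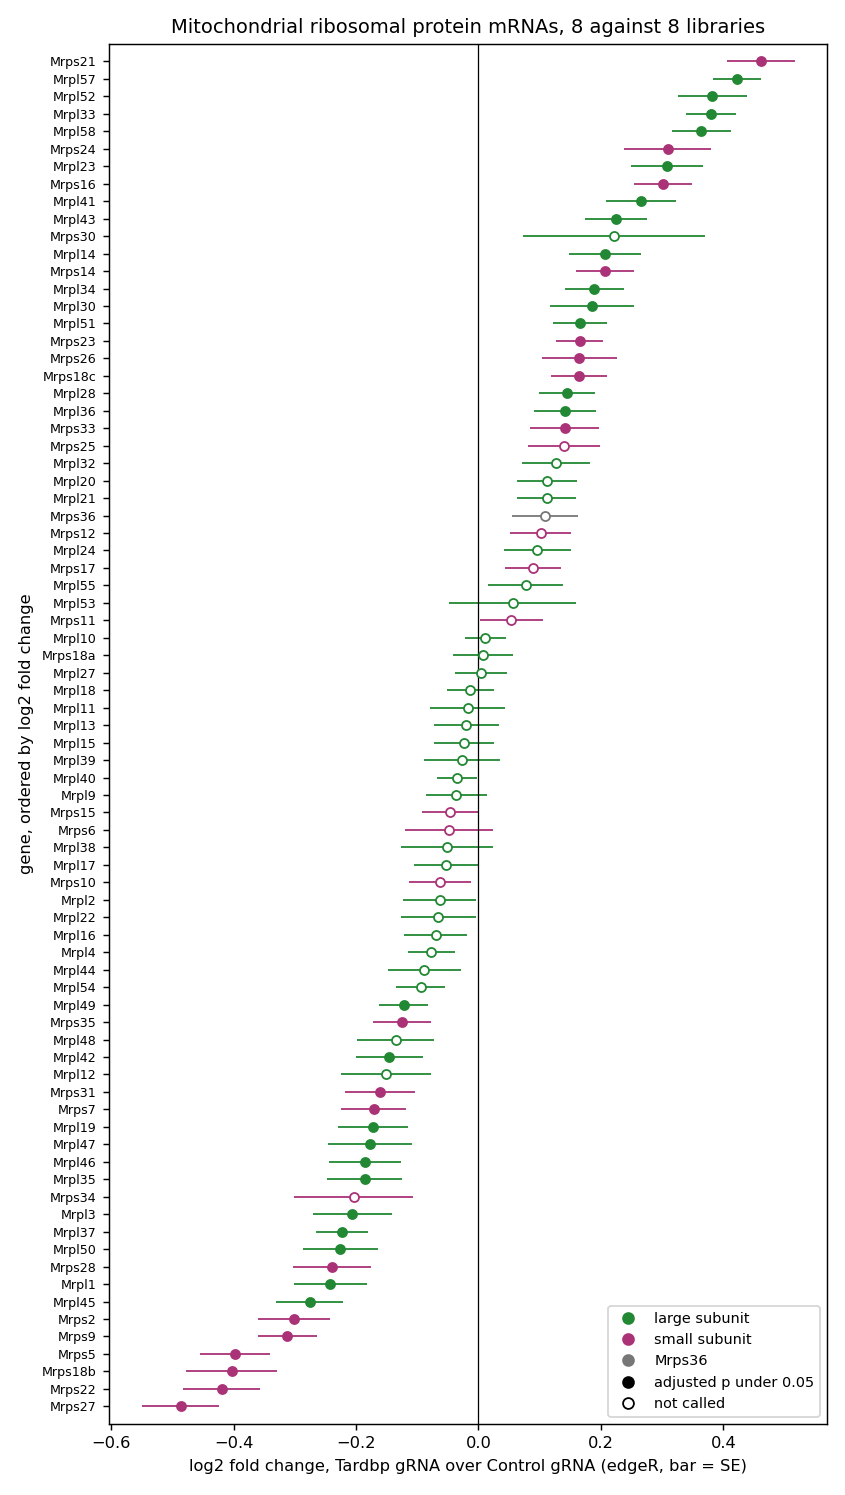
Log2 fold change of each of the 78 mitochondrial ribosomal protein genes, Tardbp gRNA over Control gRNA, from the edgeR fit of 8 against 8 libraries, ordered by value; bars are SE, colors give the subunit and filled points passed an adjusted p under 0.05. Called members lie at both ends, from -0.49 for Mrps27 to 0.46 for Mrps21.

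Proteins of the small subunit made up 7 of the 10 called members with the lowest log2 fold changes, beside 29 Mrps symbols among all 78 members. Mrps27 (chr13:99344786-99415562, GRCm38), a pentatricopeptide repeat protein added to the small subunit in mitochondria, lay between 49.0 and 67.0 CPM (median 58.5) in Control gRNA and between 38.1 and 44.8 CPM (median 41.9) in Tardbp gRNA. Every Tardbp gRNA library was below every Control gRNA library, and the log2 fold change was -0.49 (SE 0.063, adjusted p = 5.62e-06). Mrps22 (chr9:98588730-98601660), also particular to the mitochondrial small subunit, lay between 58.9 and 81.0 CPM (median 68.2) in Control gRNA and between 46.5 and 59.2 CPM (median 50.6) in Tardbp gRNA. Its groups met only at the edge, where the highest Tardbp gRNA library passed the lowest Control gRNA library, and the log2 fold change was -0.42 (SE 0.063, adjusted p = 2.78e-05). Mrps18b (chr17:35910379-35916389), one of 3 related proteins that mammals encode in separate genes, lay between 61.4 and 87.8 CPM (median 68.1) in Control gRNA and between 46.0 and 59.8 CPM (median 53.7) in Tardbp gRNA. Its groups were separate, with a log2 fold change of -0.40 (SE 0.075, adjusted p = 2.26e-04). Mrps5 (chr2:127587222-127606829), whose bacterial counterpart affects the accuracy of decoding, was measured between 78.2 and 101 CPM (median 90.5) in Control gRNA and between 64.5 and 72.7 CPM (median 70.4) in Tardbp gRNA, again with no overlap, and its log2 fold change was -0.40 (SE 0.057, adjusted p = 1.57e-05).

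The same direction was seen in 3 further small subunit proteins that bacteria share. Mrps9 (chr1:42851233-42905683) lay between 62.8 and 72.2 CPM (median 68.2) in Control gRNA and between 49.8 and 62.5 CPM (median 54.6) in Tardbp gRNA, without overlap, and its log2 fold change was -0.31 (SE 0.048, adjusted p = 3.30e-05). Mrps2 (chr2:28468066-28471178) was measured between 51.9 and 64.4 CPM (median 60.1) in Control gRNA and between 42.3 and 52.3 CPM (median 48.0) in Tardbp gRNA, and the lowest Control gRNA library fell below 3 Tardbp gRNA libraries. Its log2 fold change was -0.30 (SE 0.058, adjusted p = 3.32e-04). Mrps28 (chr3:8802146-8923918) lay between 54.8 and 74.9 CPM (median 58.0) in Control gRNA and between 48.8 and 55.3 CPM (median 51.6) in Tardbp gRNA, with overlapping groups and a log2 fold change of -0.24 (SE 0.064, adjusted p = 0.00481). The large subunit was represented here by Mrpl45, Mrpl1 and Mrpl50. Mrpl45 (chr11:97315716-97329920), which sits at the mouth of the peptide exit tunnel and holds the ribosome to the inner membrane, lay between 101 and 127 CPM (median 113) in Control gRNA and between 87.3 and 103 CPM (median 94.5) in Tardbp gRNA, and its log2 fold change was -0.28 (SE 0.055, adjusted p = 4.23e-04). Mrpl1 (chr5:96209493-96266727), the protein of the mobile stalk beside the exit site of transfer RNA, lay between 57.3 and 73.1 CPM (median 67.4) in Control gRNA and between 50.3 and 63.6 CPM (median 56.9) in Tardbp gRNA at a log2 fold change of -0.24 (SE 0.059, adjusted p = 0.00253). Mrpl50 (chr4:49512596-49521093), added to the large subunit in mitochondria, lay between 40.2 and 54.5 CPM (median 47.5) in Control gRNA and between 37.2 and 47.2 CPM (median 39.7) in Tardbp gRNA at a log2 fold change of -0.23 (SE 0.061, adjusted p = 0.00531). The groups of these 3 large subunit genes overlapped. With upper quartile scaling Mrps28 and Mrpl50 were no longer called, at log2 fold changes of -0.17 (adjusted p = 0.0504) and -0.15 (adjusted p = 0.0547).

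Of the 10 called members with the highest log2 fold changes, 3 had Mrps symbols, beside 29 of all 78 members. Their coding regions had a median of 405 bases, beside 568.5 over all members. Mrps21 (chr3:95862634-95871519), the highest and a short small subunit protein kept from bacteria, was measured between 85.5 and 101 CPM (median 96.0) in Control gRNA and between 113 and 144 CPM (median 131) in Tardbp gRNA. Every Tardbp gRNA library exceeded every Control gRNA library, at a log2 fold change of 0.46 (SE 0.055, adjusted p = 2.11e-06). Mrpl57 (chr14:57826234-57829296) lay between 80.4 and 91.8 CPM (median 86.2) in Control gRNA and between 108 and 123 CPM (median 116) in Tardbp gRNA, with a log2 fold change of 0.42 (SE 0.039, adjusted p = 1.63e-07). Mrpl52 (chr14:54426909-54429756) lay between 54.2 and 68.8 CPM (median 59.1) in Control gRNA and between 74.9 and 91.2 CPM (median 76.6) in Tardbp gRNA, with a log2 fold change of 0.38 (SE 0.056, adjusted p = 2.14e-05). Both are additions of the mitochondrial large subunit and in both the groups were separate. Mrpl33 (chr5:31596935-31664384), a large subunit protein kept from bacteria, lay between 152 and 174 CPM (median 155) in Control gRNA and between 189 and 219 CPM (median 209.7) in Tardbp gRNA, without overlap and at a log2 fold change of 0.38 (SE 0.041, adjusted p = 6.78e-07). Mrpl58 (chr11:115403752-115412674), a release factor relative that frees stalled mitochondrial ribosomes and is also built into the large subunit, lay between 70.4 and 85.9 CPM (median 78.3) in Control gRNA and between 93.4 and 108 CPM (median 99.1) in Tardbp gRNA, without overlap and at 0.36 (SE 0.048, adjusted p = 6.78e-06) on the log2 scale.

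Mrps16 (chr14:20389304-20393634), a small subunit protein kept from bacteria, completed the members with separate groups and lay between 98.5 and 119 CPM (median 103) in Control gRNA and between 119.7 and 137 CPM (median 130.4) in Tardbp gRNA. Its log2 fold change was 0.30 (SE 0.047, adjusted p = 4.09e-05). Mrps24 (chr11:5703983-5715680), the small subunit protein at the entry of the mRNA channel, lay between 69.7 and 98.8 CPM (median 84.7) in Control gRNA and between 90.6 and 115 CPM (median 105) in Tardbp gRNA with a log2 fold change of 0.31 (SE 0.071, adjusted p = 0.00152). Mrpl23 (chr7:142532686-142540747), which lines the outlet of the exit tunnel, lay between 62.2 and 82.7 CPM (median 71.9) in Control gRNA and between 82.1 and 99.7 CPM (median 85.8) in Tardbp gRNA with a log2 fold change of 0.31 (SE 0.059, adjusted p = 2.91e-04). In these 2 genes the highest Control gRNA values reached into the range of Tardbp gRNA. Mrpl41 (chr2:24974117-24975098) lay between 65.1 and 81.4 CPM (median 74.3) in Control gRNA and between 80.6 and 103 CPM (median 87.0) in Tardbp gRNA and Mrpl43 (chr19:45004829-45006442) lay between 55.7 and 66.9 CPM (median 61.1) in Control gRNA and between 63.9 and 76.6 CPM (median 71.6) in Tardbp gRNA. These are mitochondrial additions to the large subunit, with log2 fold changes of 0.27 (SE 0.057, adjusted p = 9.31e-04) and 0.22 (SE 0.051, adjusted p = 0.00128). When log2 RNA concentration was a term of the fit, 9 of these 20 genes were still called, in a fit that called 16.2% of all tested genes, namely Mrps9 among the lower and Mrps21, Mrpl57, Mrpl52, Mrpl33, Mrpl58, Mrpl23, Mrps16 and Mrpl43 among the higher.

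**Figure D2:**
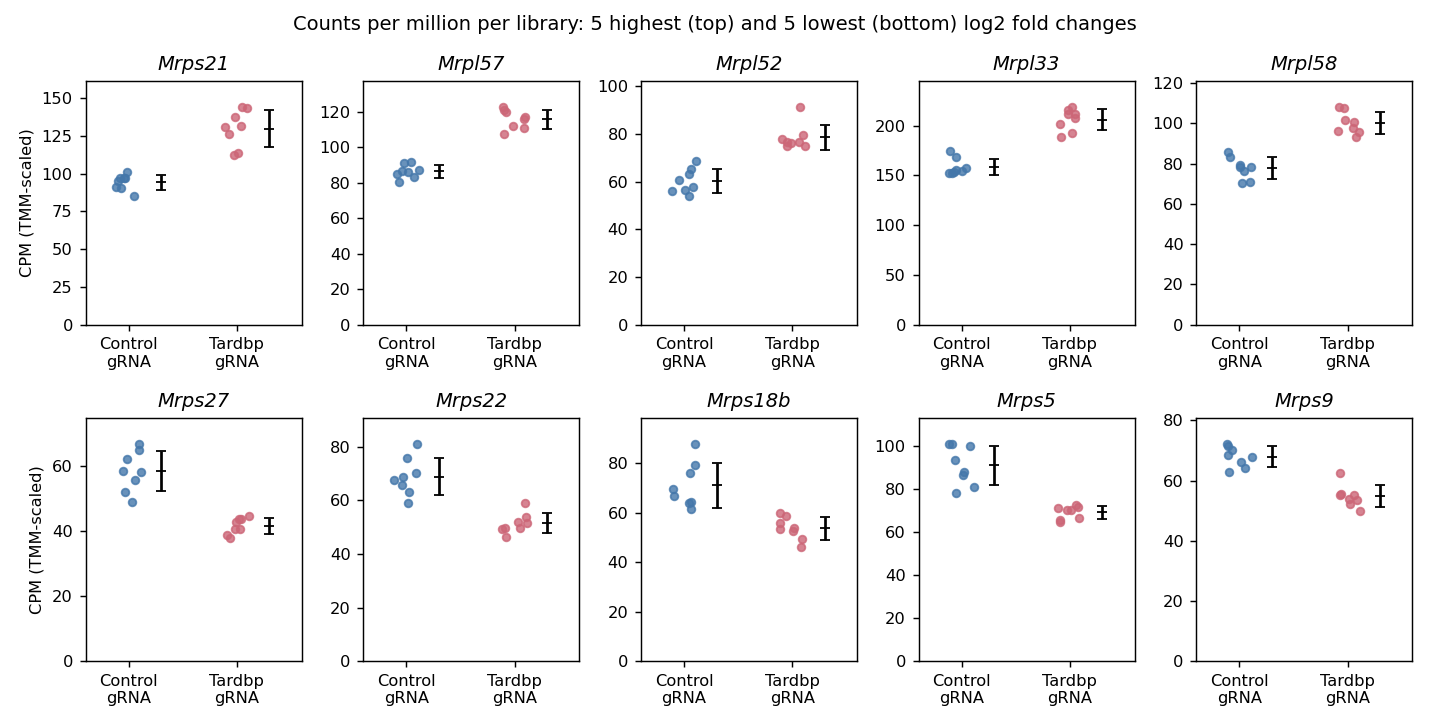
TMM-scaled CPM in each library for the 5 members with the highest (top row) and the 5 with the lowest (bottom row) log2 fold changes; points are libraries and the mark beside them is the mean with its SD (n = 8). Only Mrps22 of these 10 has overlapping groups, with 58.9 CPM in the lowest Control gRNA library and 59.2 CPM in the highest Tardbp gRNA library.

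Both subunits held members of either direction. Of the 30 large subunit proteins kept from bacteria, 7 were higher and 5 lower (median -0.016), and of the 21 particular to mitochondria, 6 were higher and 6 lower (median -0.035). In the small subunit, 5 of 16 bacterial descendants were higher and 5 lower (median 0.0037), and 3 of 10 mitochondrial additions were higher and 5 lower (median -0.14). With upper quartile scaling these 4 splits became 11 and 1, 6 and 2, 7 and 3, and 4 and 3, and the medians of both large subunit classes became positive. Mrps30 and Mrps18a were counted with the large subunit, where their proteins are found. Mrps36, now known as a component of the alpha-ketoglutarate dehydrogenase complex, was in no class and had a log2 fold change of 0.11 (adjusted p = 0.111). With upper quartile scaling Mrps36 was called higher at 0.18. Of the 6 genes of the peptide tunnel exit, 1 was higher and 2 lower (median -0.059).

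The stalk of the large subunit, which recruits translation factors, gave no call in either direction. Mrpl12, the protein of its flexible arm, lay between 157 and 237 CPM (median 179.6) in Control gRNA and between 155 and 180.3 CPM (median 166) in Tardbp gRNA. The groups overlapped, with 4 Control gRNA libraries above every Tardbp gRNA library, and the log2 fold change was -0.15 (SE 0.073, adjusted p = 0.101). The other tested stalk genes were Mrpl10, which anchors that arm, at 0.011 (adjusted p = 0.815), Mrpl11 at -0.018 (adjusted p = 0.840), Mrpl53 at 0.056 (adjusted p = 0.690) and Mrpl54 at -0.094 (adjusted p = 0.0629). DESeq2 called 1 of the 5 lower, Mrpl54, at -0.10. Over the 36 members that were not called, log2 fold changes ran from -0.20 to 0.22. The widest SE among them was that of Mrps30, 0.15 at a log2 fold change of 0.22.

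Per unit of length, the member mRNAs spanned a 39.9-fold range of levels although their proteins enter the same particle. Mean TPM, a level that divides counts by transcript length, over the 16 libraries ran from 13.9 to 554 with a median of 107, and 53 of 78 members lay within 2-fold of that median. The median was 107 TPM for Mrpl genes and 111 TPM for Mrps genes. All members were above the median of the 12245 tested protein-coding genes, 13.8 TPM. The highest levels were 554 ± 68.4 TPM (SD, n = 16) for Mrpl33, 481 ± 41.3 for Mrpl42, 423 ± 19.9 for Mrpl18 and 377 ± 59.6 for Mrps21. Neighbors in this order overlapped over the libraries. Within Control gRNA the order of the first 2 was the other way around, with 492 ± 19.2 TPM (SD, n = 8) for Mrpl33 and 511 ± 33.9 TPM for Mrpl42, while in Tardbp gRNA they stood at 616 ± 30.5 and 452 ± 23.3 TPM. Mrpl42, a mitochondrial addition, was called lower at a log2 fold change of -0.15 (SE 0.055, adjusted p = 0.0356), and Mrpl18, which binds structural RNA of the large subunit, was not called at -0.013 (SE 0.039, adjusted p = 0.806). The lowest levels were 13.9 ± 1.63 TPM for Mrpl47, 17.4 ± 1.29 for Mrps25, 21.2 ± 1.26 for Mrps35 and 24.4 ± 2.67 for Mrpl19, all on annotated mRNAs over 3000 bases long. Their log2 fold changes were -0.18 (adjusted p = 0.0416), 0.14 (adjusted p = 0.0594), -0.12 (adjusted p = 0.0384) and -0.17 (adjusted p = 0.0188).

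Summed over all members as TMM-scaled CPM, the ranges of the groups overlapped over most of their width. The summed level was 6601 to 7939 (median 6996) over Control gRNA and 6962 to 7722 (median 7082) in Tardbp gRNA, in CPM. This depended on the scaling, with TMM factors of 0.956 to 0.989 over Control gRNA and 1.01 to 1.04 in Tardbp gRNA. Without these factors, members held 0.651 to 0.758% of counts (median 0.681%) over Control gRNA and 0.708 to 0.789% (median 0.724%) in Tardbp gRNA. The highest library of each group was Control gRNA 1 at 7939 CPM and Tardbp gRNA 4 at 7722 CPM, and the next ones lay at 7298 and 7274 CPM. By the subunit classes above, the ratio of the summed CPM of large subunit genes to that of small subunit genes was 2.27 to 2.37 (median 2.32) over Control gRNA and 2.32 to 2.36 (median 2.35) in Tardbp gRNA, so that the ranges overlapped. Without Control gRNA 1 and Tardbp gRNA 4, 22 members were higher and 21 lower.

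The direction of a member's difference went with the length of its mRNA. In the 26 members with the shortest mRNAs (up to 922 bases), 12 were higher and 2 lower, with a median log2 fold change of 0.11. In the 26 with the longest mRNAs (from 1551 bases), 4 were higher and 13 lower, with a median of -0.12. Mrps21, Mrpl52 and Mrpl33 are the 3 members with the shortest mRNAs, at 478, 429 and 528 bases. Mrpl57 stood out among the higher genes with 1807 bases, of which 306 are coding. Of the lower genes, Mrps28 had 783 bases and Mrps5 3797 bases. The 10 lowest called members had a median of 8 exons and 963 coding bases, and the 10 highest 3.5 exons and 405 coding bases.

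Across the 78 members, which share libraries and are not replicates, Spearman's rho of the log2 fold change was -0.40 with mRNA length (Pearson's r -0.39 with its log2), -0.66 with coding length and -0.47 with exon number. Over all alternative fits the rho with coding length stayed between -0.70 and -0.60. This pattern was not particular to the members. Over 12245 tested protein-coding genes the rho with mRNA length was -0.27, over 81 cytosolic ribosomal protein genes -0.44 and over 78 nuclear respiratory chain genes -0.64. The median log2 fold change of protein-coding genes fell from 0.27 at up to 500 bases to 0.10 between 1000 and 2000 bases and -0.14 above 3000 bases. In the class from 1000 to 2000 bases the 29 members had a median of -0.052. The ratio of the summed CPM of the 26 shortest to that of the 26 longest members was 0.959 to 1.05 (median 0.999) over Control gRNA and 1.08 to 1.16 (median 1.13) in Tardbp gRNA. No Control gRNA library reached the lowest Tardbp gRNA library in that ratio. The library fragment size was 376 to 409 bases for Control gRNA and 368 to 397 bases in Tardbp gRNA, and the part of fragment size and of RNA yield in the length pattern was not tested.

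**Figure D3:**
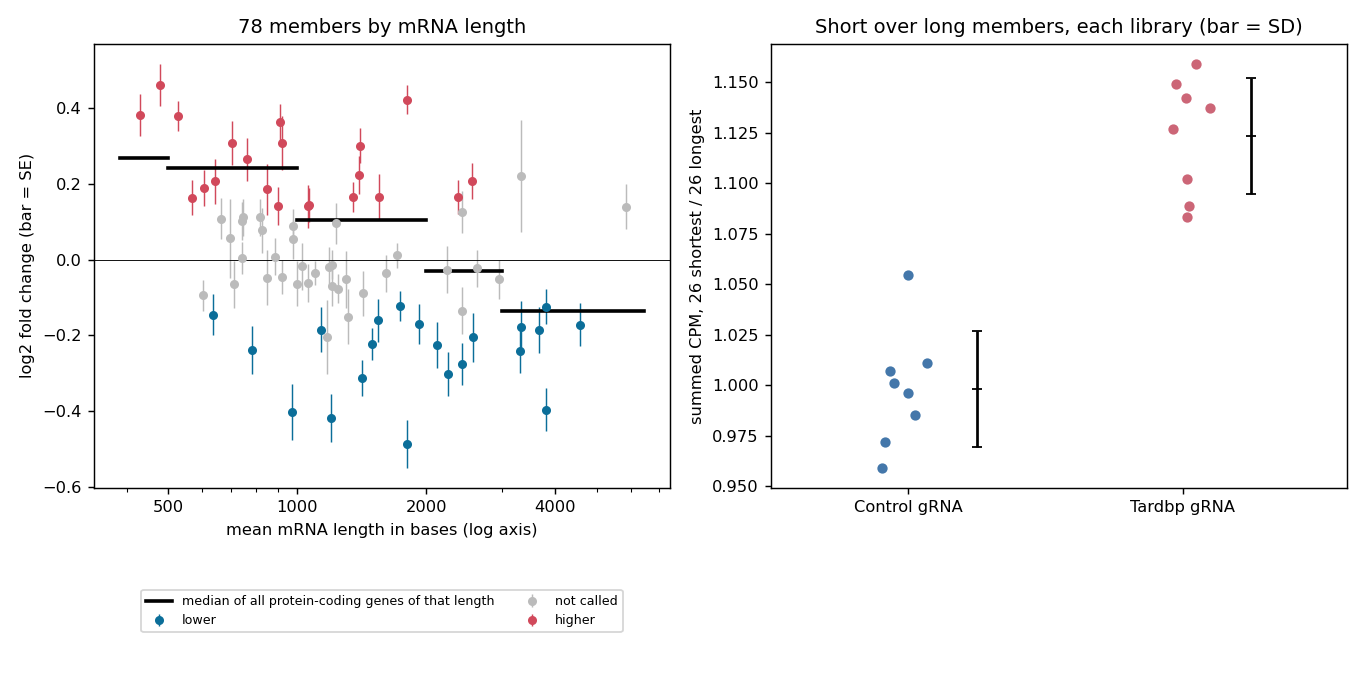
Left, log2 fold change of each of the 78 members (Tardbp gRNA over Control gRNA, bar = SE) against its mean mRNA length on a log axis, colored by call, with the median of all tested protein-coding genes of each length class as black lines; right, summed CPM of the 26 shortest over that of the 26 longest members in each library, with mean and SD (n = 8). The ratio runs from 0.959 to 1.05 for Control gRNA libraries and from 1.08 to 1.16 in Tardbp gRNA.

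Most mitochondrial ribosomal protein genes lack a TATA box and are known to start from GC-rich promoters bound by NRF1, ETS factors such as GABPA, and YY1. RefSeq promoters (GRCm38.p6, from 250 bases before to 50 bases after a gene's start) were matched by symbol for 69 of the 78 members, giving 75 windows. The NRF1 motif, GCGCA and GCGC with any 1 base between them, was found in 17.3% of the member windows and in 4.60% of all 32851 windows, searched on both strands. The ETS motif CCGGAAG was found in 34.7% against 8.86%, and the YY1 motif AAGATGGCG in 10.7% against 1.40%. TATAAA was found in 6.67% against 13.6%, the E-box CACGTG in 9.33% against 7.15%, GGGCGG in 52.0% against 35.7%, and CCAAT in 40.0% against 37.4%. All windows include those of untested genes. Per gene, GGGCGG was in 34 members and not in 35, beside 6858 and 3460 tested genes. CACGTG (5 and 64, beside 1189 and 9129) and CCAAT (27 and 42, beside 4446 and 5872) were likewise less frequent in members than in tested genes. NRF1 (13 and 56, beside 1179 and 9139) and ETS (26 and 43, beside 2136 and 8182) were more frequent. The letters of the motifs do not contain one another, but matches may overlap. Of the 26 members with the ETS motif, 13 were higher and 4 lower (median 0.13), and of the 43 without it, 8 were higher and 14 lower (median -0.036). Their median mRNA lengths were 1014 and 1233 bases. Of all tested genes with the ETS motif, 25.6% were higher and 32.2% lower (median -0.022), and of those without it 24.1% and 26.4% (median 0.019). With the NRF1 motif 5 of 13 members were higher and 2 lower, beside 22.9% and 34.9% of all tested genes with that motif. With the YY1 motif 2 of 8 were higher and 4 lower, beside 20.9% and 35.6%.

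The 150 bases before the start are shown for the 3 members with the highest and the 3 with the lowest log2 fold changes, so that the promoters of genes that moved in opposite directions can be read side by side. They are printed 5′ to 3′ on the strand of the gene, from RefSeq on GRCm38.p6, with matches of the NRF1, ETS or YY1 motif on either strand in capitals.
Mrps21 (chr3:95871515-95871664, minus strand): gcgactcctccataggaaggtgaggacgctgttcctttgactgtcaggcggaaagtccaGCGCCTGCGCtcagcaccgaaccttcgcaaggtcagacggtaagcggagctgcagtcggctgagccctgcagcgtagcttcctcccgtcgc
Mrpl57 (chr14:57826089-57826238, plus strand): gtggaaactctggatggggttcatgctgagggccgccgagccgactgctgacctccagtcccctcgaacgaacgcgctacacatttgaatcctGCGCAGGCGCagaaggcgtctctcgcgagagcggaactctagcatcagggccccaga
Mrpl52 (chr14:54426759-54426908, plus strand): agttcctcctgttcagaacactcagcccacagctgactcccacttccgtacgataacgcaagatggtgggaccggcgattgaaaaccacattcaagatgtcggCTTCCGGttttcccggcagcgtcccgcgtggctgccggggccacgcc
Mrps27 (chr13:99344636-99344785, plus strand): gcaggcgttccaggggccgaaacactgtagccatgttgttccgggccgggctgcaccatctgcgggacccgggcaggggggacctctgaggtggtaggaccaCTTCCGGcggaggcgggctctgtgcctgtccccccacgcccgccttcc
Mrps22 (chr9:98601680-98601829, minus strand): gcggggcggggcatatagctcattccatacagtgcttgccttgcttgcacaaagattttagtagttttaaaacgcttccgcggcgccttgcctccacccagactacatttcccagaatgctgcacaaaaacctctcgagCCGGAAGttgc
Mrps18b (chr17:35916441-35916590, minus strand): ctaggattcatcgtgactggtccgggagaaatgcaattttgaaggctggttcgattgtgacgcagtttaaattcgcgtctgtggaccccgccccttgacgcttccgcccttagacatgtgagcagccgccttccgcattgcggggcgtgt
The capitals mark an NRF1 match in Mrps21 and Mrpl57 and an ETS match in Mrpl52, Mrps27 and Mrps22. Mrps18b held none of the 3 motifs in these bases. Genes of both directions thus carried the ETS letters close to the start.

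Isoforms were examined because gene counts do not show them. Of 260 tested transcripts of the members, 33 (12.7%) were called, 16 higher and 17 lower, beside 16.6% of all 40897 tested transcripts. All but 1 moved in the direction of their gene. As a share of the gene's counts, 1 of 252 transcripts in 70 member genes was called (limma, adjusted p under 0.05 and a difference over 0.1), against 0.635% of 32777 transcripts in all genes. This was Mrps2-203, annotated as a processed transcript, which keeps intron 2 of the coding form Mrps2-201 (chr2:28468360-28468820, GRCm38, 461 bases, plus strand). Its share lay between 0.259 and 0.508 (median 0.409) in Control gRNA and between 0.00960 and 0.372 (median 0.116) in Tardbp gRNA. In 6 of 8 Tardbp gRNA libraries it was below every Control gRNA library, but the groups overlapped, and the difference was -0.244 (SE 0.0558, adjusted p = 0.0213). The share of Mrps2-201 lay between 0.313 and 0.551 (median 0.451) in Control gRNA and between 0.428 and 0.989 (median 0.722) in Tardbp gRNA, a difference of 0.269 (SE 0.0795, adjusted p = 0.0737). Mrps2-203 was called in each of the 16 fits that left out 1 library. The ends of the kept intron are given as annotated in GENCODE M21, 5′ to 3′, with the splice site bases in capitals.
Mrps2 intron 2, first 30 bases (chr2:28468360-28468389): GTaaagatcagcgggtggagctgggccggg
Mrps2 intron 2, last 30 bases (chr2:28468791-28468820): cacagtgtctgcccttactctctttttcAG
TDP-43 is known to bind UG repeats. The letters TGTGTG occurred 0 times in the 461 bases of this intron. No expected number was computed for that length, and binding of TDP-43 to Mrps2 RNA was not tested.

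The one transcript that went against its gene was Mrps36-202. It lay between 8.05 and 25.6 CPM (median 20.9) in Control gRNA and between 7.86 and 18.6 CPM (median 9.14) in Tardbp gRNA. The groups overlapped, and the log2 fold change was -0.84 (SE 0.26, edgeR adjusted p = 0.0335), while that of the gene was 0.11. As a share of Mrps36 it lay between 0.110 and 0.348 (median 0.291) in Control gRNA and between 0.102 and 0.250 (median 0.122) in Tardbp gRNA, a difference of -0.120 (adjusted p = 0.0739), and the share of Mrps36-203 lay between 0.614 and 0.863 (median 0.677) in Control gRNA and between 0.686 and 0.869 (median 0.844) in Tardbp gRNA. The annotated starts of these transcripts are 2 bases apart. In the deposited splicing table, which gives the authors' pooled percent-spliced-in (Psi) per group and no value per library, the groups are named only A and B. They were read here as Control gRNA and Tardbp gRNA from the study's text, and the direction of every Psi difference rests on that reading. The first-exon node that begins at the start of Mrps36-202 had a Psi of 0.411 for Control gRNA and 0.146 for Tardbp gRNA. Its neighbor of 2 bases had 0.589 and 0.854. Of 389 nodes in 72 member genes, 6 (1.54%) differed by more than 0.1 between the groups, against 4.70% of all 125520 nodes. All 6 were alternative start nodes, a pair each in Mrps36, Mrps18a and Mrpl9. In Mrps18a the pair had Psi values of 0.835 and 0.164 for Control gRNA and 0.654 and 0.346 in Tardbp gRNA. In Mrpl9 they were 0.726 and 0.274, and 0.599 and 0.403. None of the 251 core exon nodes of the members passed 0.1, and the largest difference among them was 0.0460, in an exon of Mrpl10. The exons before and after intron 2 of Mrps2 had Psi values of 0.996 and 0.996 for Control gRNA. In Tardbp gRNA they had 0.994 and 0.995. Of the 4 retained intron nodes of the members, 0 differed by more than 0.1.

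**Figure D4:**
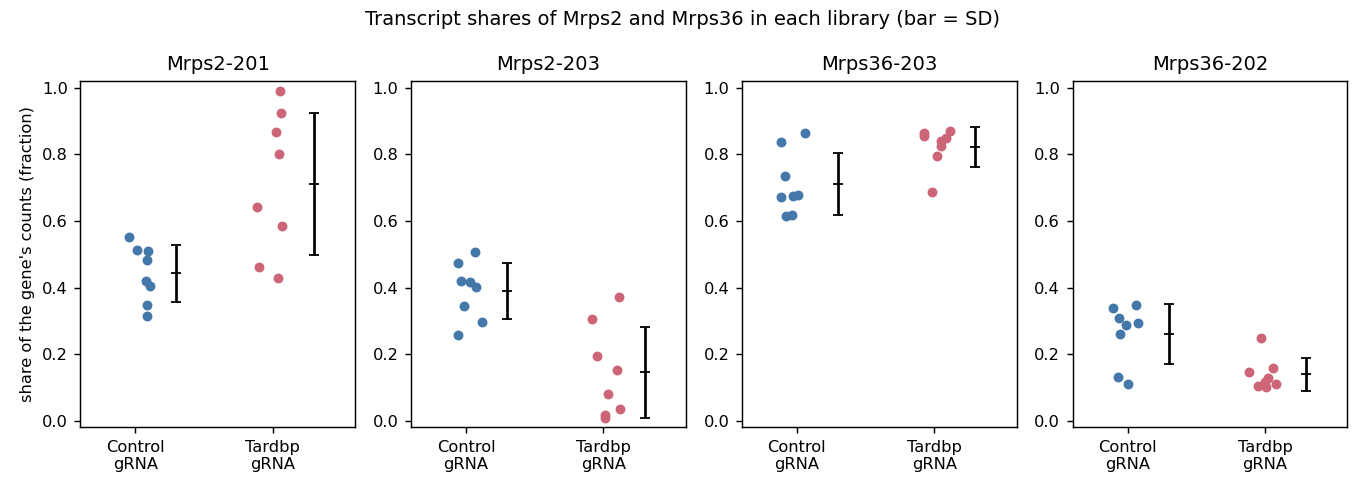
Share of the gene's counts (fraction) for 2 transcripts each of Mrps2 and Mrps36 in each library, with mean and SD (n = 8) per group. The Mrps2-203 share has a median of 0.409 for Control gRNA and 0.116 in Tardbp gRNA, with overlapping groups.

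Among the genes that build and serve the mitochondrial ribosome, most calls were toward lower levels in Tardbp gRNA. Over all tested genes, 23.5% were called higher and 23.3% lower. Median mRNA lengths were 1811 bases for the assembly list, 2415 for the translation list and 2482 for mitochondrial transcription and RNA processing. They were 2809 bases for the transcription factors and 1204 bases for the members. Longer mRNAs tended to be lower over all protein-coding genes, and the part of length in these calls was not tested. Among the assembly factors and rRNA modifying enzymes, 3 were higher and 13 lower of 26 tested (median -0.24). The lowest were Ybey, an RNase needed for small subunit assembly, at -0.66 (SE 0.11, adjusted p = 7.43e-05), Nsun4, an rRNA methyltransferase that also joins the subunits, at -0.61 (SE 0.076, adjusted p = 3.23e-06), and Mettl15, a methyltransferase of small subunit rRNA, at -0.58 (SE 0.093, adjusted p = 5.72e-05). In these 3 genes the groups did not overlap. The higher ones were Ngrn at 0.37 (SE 0.058, adjusted p = 3.98e-05), Mterf4, the partner of Nsun4, at 0.20, and Mterf3 at 0.11. Of the members' relatives in the ribosome with other symbols, 1 was higher and 1 lower of 5 tested (median -0.0043). Ptcd3, a pentatricopeptide repeat protein of the small subunit like Mrps27, was at -0.52 (SE 0.051, adjusted p = 2.92e-07) and Aurkaip1, also of the small subunit, at 0.14 (SE 0.040, adjusted p = 0.00971).

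Of the translation factors and their partners, 1 was higher and 8 lower of 15 tested (median -0.26). Taco1, an activator of the translation of mt-Co1, was at -0.86 (SE 0.10, adjusted p = 1.07e-06), Lrpprc, which stabilizes mitochondrial mRNAs, at -0.72 (SE 0.090, adjusted p = 3.53e-06), and Gfm1, the elongation factor that moves the ribosome along, at -0.53 (SE 0.053, adjusted p = 3.38e-07). No library of these 3 genes crossed between the groups. Mtif3, an initiation factor, was the gene called higher, at 0.20. Of the genes of mitochondrial transcription and RNA processing, 3 were higher and 6 lower of 13 tested (median -0.11). Pnpt1, the mitochondrial polynucleotide phosphorylase, was at -0.64 (SE 0.058, adjusted p = 1.47e-07), Polrmt, the RNA polymerase, at -0.54 (SE 0.071, adjusted p = 5.65e-06) and Elac2, which trims transfer RNA, at -0.45 (SE 0.066, adjusted p = 1.81e-05). Mterf2, Hsd17b10 and Mterf1a were higher, at 0.34, 0.32 and 0.22.

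None of the tested RNAs that the mitochondrial ribosome reads or contains was called lower. Of the mitochondrial mRNAs, 4 were higher and 0 lower of 13 tested (median 0.12). With log2 RNA concentration in the fit, 0 were higher and 0 lower (median 0.016). In the fit without it, mt-Nd6 was at 0.41 (SE 0.087, adjusted p = 7.78e-04), mt-Atp6 at 0.39 (SE 0.067, adjusted p = 1.02e-04) and mt-Nd4 at 0.37 (SE 0.11, adjusted p = 0.00799), all with overlapping groups. The 2 mitochondrial rRNAs, mt-Rnr1 and mt-Rnr2, were not called, at 0.065 and -0.14. Among the transcription factors and coactivators known for these genes, 1 was higher and 6 lower of 9 tested (median -0.33). Max, the partner of Myc, was at -0.95 (SE 0.16, adjusted p = 6.86e-05), Pprc1, a coactivator of NRF1, at -0.86 (SE 0.078, adjusted p = 1.44e-07) and Ppargc1b, another coactivator, at -0.44 (SE 0.11, adjusted p = 0.00279). Yy1 was higher at 0.25 (SE 0.083, adjusted p = 0.0172). Of 2 large sets of other short mRNAs, cytosolic ribosomal proteins had 39 higher and 3 lower of 81 (median 0.12), and nuclear respiratory chain genes 55 higher and 7 lower of 78 (median 0.29). Of 20 cell cycle genes, 19 were lower and 0 higher (median -0.61), and their part in these results was not tested. The medians of the assembly, translation and transcription factor lists stayed negative, and those of the mitochondrial mRNAs, cytosolic ribosomal proteins and respiratory chain genes positive, with upper quartile scaling and with the filter on mean log2 CPM. With log2 RNA concentration in the fit, the calls were 0 higher and 4 lower (median -0.018) for assembly, 0 higher and 5 lower (median -0.18) for translation, 1 higher and 2 lower (median -0.19) for mitochondrial transcription and RNA processing, 0 higher and 2 lower (median -0.29) for transcription factors. In the same fit, cytosolic ribosomal proteins had 15 higher and 0 lower (median 0.24), and respiratory chain genes 44 higher and 4 lower (median 0.34).

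**Figure D5:**
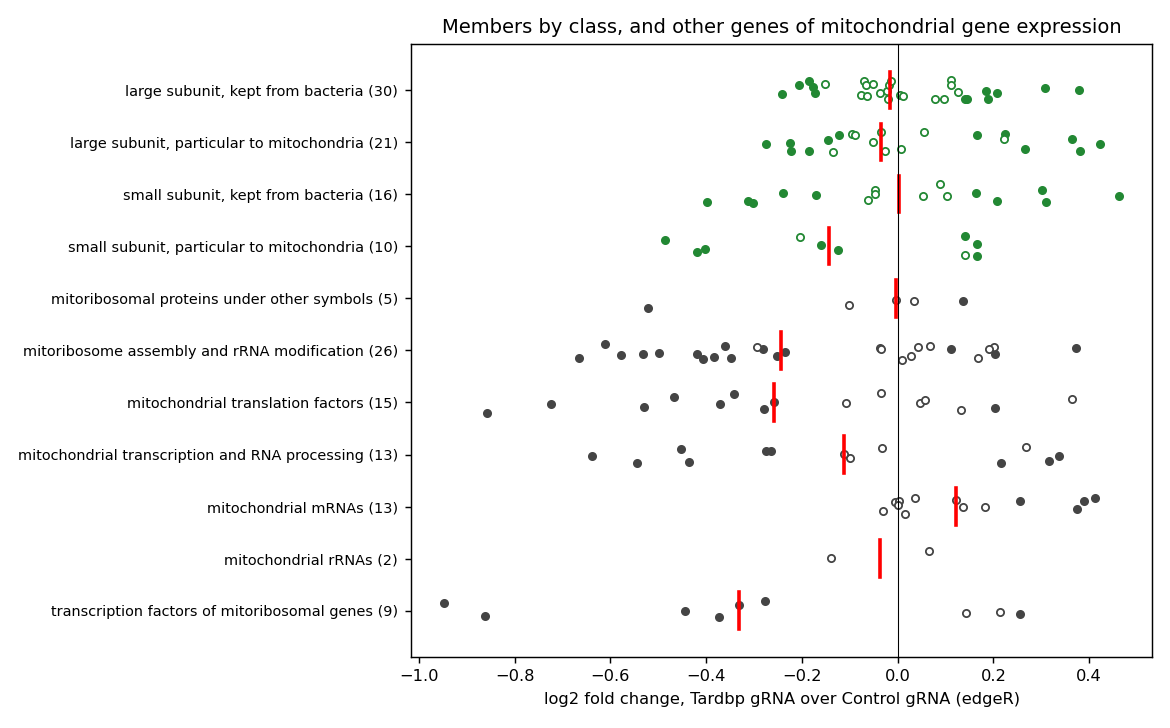
Log2 fold change of each gene, Tardbp gRNA over Control gRNA, for the members by subunit class (green) and for other genes of mitochondrial gene expression (gray), with the number of tested genes in parentheses; filled points passed an adjusted p under 0.05 and the red line is the median. The lowest medians are those of the transcription factors, -0.33, and of the translation factors, -0.26.

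The effect of the guide was also compared between libraries that the authors lettered F or M. In an interaction fit by edgeR, 0 of the 78 members were called and 0 had an unadjusted p under 0.05, and DESeq2 also called 0. Over all genes edgeR called 0 (0%), with 662 at an unadjusted p under 0.05. Every library held counts of both Xist and Ddx3y, so the letter may not describe the sex of the transferred cells.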

How the data were processed

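RNA was extracted with a micro kit, libraries were made with SMART-Seq v4 and Nextera XT, which do not mark the strand, and sequenced as paired reads. The deposited tables hold estimated counts per gene and per transcript, which the authors derived with HISAT2 2.1.0 and StringTie 2.1.0 on mm10 (submitters' processing notes), already as whole numbers. The authors' splicing table gives Psi as a fraction per group, made with Whippet as 1 value per group, and its Psi differences and probabilities were not used. The deposited sample sheet gives read pair counts, RNA concentration, fragment size and a letter per library, with other columns unused. Of the count columns, 10 match no library and were not used. Lines that name no annotated gene held 0.0836 to 0.132% of counts and were left out.

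Counts were rounded and filtered with filterByExpr (minimum count 10, minimum total 15, proportion 0.7), TMM-scaled and tested with edgeR 4.0.16 (quasi-likelihood, R 4.3.3), adjusted over all genes. SE is the log2 fold change over the root of F. Alternatives were DESeq2 1.42.0, upper quartile scaling, other filters and thresholds, covariates, parts of the libraries and leaving out each library. Transcript shares were tested with limma 3.58.1. SciPy 1.17.1 gave the permutation test. TPM was recomputed from transcript counts and annotated lengths, and mRNA length is the count-weighted mean over transcripts. On simulated counts, edgeR recovered 51.0% of 98 changes of 0.5 and 76.1% of 92 changes of 1 (log2) in this comparison over 16222 genes. The changed genes were drawn from genes of all levels, so these shares are not those of the members. The median SE in the data was 0.055 for members and 0.11 for all tested genes. No 2 libraries of a group matched within counting noise (chi-square per gene at least 15.8).

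Named genes are Tardbp, the 10 highest and 10 lowest called members by log2 fold change, the 4 highest and 4 lowest by TPM, the stalk genes, the 3 highest and 3 lowest called genes of each list and called transcript shares. Other names were added after their values were seen. The members, lists and tests were chosen with earlier results of these data known. Of the members, 33 share exonic bases with another gene, and without strand their reads cannot be told apart. Among them are Mrps27, Mrps18b, Mrpl33, Mrpl58, Mrps24 and Mrpl43. Of the genes named for their TPM or as stalk genes, Mrpl18, Mrpl47, Mrps25, Mrpl19, Mrpl10, Mrpl12 and Mrpl53 are also among them. Processed pseudogenes of Mrpl23, Mrpl48 and Mrps36 held at most 9.59 CPM.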

Additional observations from a re-analysis of the deposited data

Results flagged for a closer look

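A library was examined further where its gap to the nearest other library of its group, over the range of the group, exceeded Dixon's 95% critical value for 8 values. Over the members and Tardbp this held in 21 of 158 gene and group combinations, where chance, at about 1 in 20 groups, gives 7.9. Control gRNA 1 was the highest of its group for 8 members, each given with the range of the other 7 libraries: Mrpl42 at 239 CPM against 181 to 206, Mrpl54 at 104 CPM against 88.4 to 94.5, Mrpl16 at 90.5 CPM against 70.2 to 76.9, Mrpl18 at 359 CPM against 300 to 324, Mrpl24 at 91.3 CPM against 68.4 to 78.9, Mrpl20 at 161 CPM against 127 to 141, Mrps25 at 72.3 CPM against 56.4 to 61.6, Mrpl51 at 174 CPM against 140 to 156. Tardbp gRNA 4 was the highest of its group for 8 members: Mrpl17 at 121 CPM against 98.9 to 105, Mrpl11 at 69.5 CPM against 58.1 to 62.5, Mrpl27 at 115 CPM against 98.6 to 104, Mrpl55 at 59.6 CPM against 49.3 to 52.4, Mrpl32 at 92.4 CPM against 72.0 to 81.0, Mrps33 at 100 CPM against 80.8 to 89.2, Mrpl14 at 59.5 CPM against 47.1 to 52.9, Mrpl52 at 91.2 CPM against 74.9 to 79.7. The same 2 libraries had the highest summed member level of their groups.

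Of the remaining combinations, Mrps9 in Tardbp gRNA 2 stood at 62.5 CPM above 49.8 to 55.6 CPM in the others, and Mrps15 in the same library at 96.4 CPM below 105 to 112 CPM. Mrpl3 in Tardbp gRNA 1 was at 111 CPM, above 84.8 to 96.1 CPM. Mrps34 in Control gRNA 8 was at 91.0 CPM, above 51.8 to 68.0 CPM. Tardbp itself was lowest in Tardbp gRNA 3, at 110 CPM below 130 to 147 CPM.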

How the results depend on the processing

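Leaving out 1 library at a time gave 38 to 45 called members, 16 to 26 higher and 17 to 26 lower, at medians of -0.069 to -0.0075. With RNA concentration in the fit, 9 members were called, 8 higher and 1 lower, at a median of 0.079, beside calls for 16.2% of all genes. With libraries 1 to 3 of each group alone, 2 were called (Mrpl57 higher, Mrps27 lower), 1 and 1, beside 10.1% of all genes, with fewer samples. At an adjusted p under 0.01, 27 were called, 11 lower. Upper quartile scaling left 9 lower and the filter on mean log2 CPM 12. Without a filter, 34 were called, and 42 by DESeq2, 42 with the letter and 38 in libraries 4 to 8 alone. With the replicate number as a block, 37 were called, 20 higher and 17 lower. Same-numbered libraries correlated at -0.0048 to 0.16, so the numbers do not pair them, and 2 of 8 numbers correlated best with themselves. Fits without 1 library called 1 to 2 transcript shares, the added ones being Mrps2-201 and Mrps36-202.

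Of the named genes, 6 members changed sign under some alternative, 5 of them not called and Mrpl19 called lower. Mrpl18 was at 0.058 with upper quartile scaling, 0.039 with the filter, 0.071 with RNA concentration and -0.050 to 0.0036 without single libraries. Mrpl11 was at 0.054, 0.035 and 0.11 in the same fits and -0.071 to 0.0030 without single libraries. RNA concentration gave 0.038 for Mrpl19 and 0.092 for Mrpl12. Libraries 1 to 3 alone gave -0.038 for Mrpl10 and -0.019 for Mrpl53, and single libraries left out -0.028 to 0.019 and -0.011 to 0.11. Of 560 refitted values of the 10 highest and 10 lowest called members, 529 kept their sign and call and 31 kept the sign alone. The cause was not tested for any of these.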

Other observations

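Mitochondrial ribosomal protein genes often share a start region with a neighbor on the other strand. Of the 78 members, 18 (23.1%) had a protein-coding gene pointing away from them with its start within 1000 bases. This was so for 6.77% of all annotated protein-coding genes, tested or not, while all 78 members were tested. Both genes were tested in 17 pairs. In 4 pairs both were called in the same direction, in 4 in opposite directions, and in 9 at least 1 gene was not called. Of all tested genes, 46.7% were called, 23.5% higher and 23.3% lower. The same counts over all such pairs of tested genes are not given here, so no excess of either kind can be read from these. Mrpl57 was at 0.42 and Ska3, a kinetochore gene whose start lies 49 bases away, at -0.44 (adjusted p = 5.82e-07). Mrpl51 was at 0.17 and Ncapd2, a condensin gene 100 bases away, at -0.68 (adjusted p = 7.36e-07). Mrps18c was at 0.16 and Helq, a DNA helicase gene, at -0.62 (adjusted p = 3.27e-06). Mrps27 and its neighbor Ptcd2, a mitochondrial RNA-binding protein gene 81 bases away, were both lower, at -0.49 and -0.59 (adjusted p = 7.18e-08). These pairs were named after their values were seen, and adjusted p is from edgeR over all genes.

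The letters TGTGTG, a short form of the UG repeats that TDP-43 binds, were counted in the most abundant coding transcript of each gene. They occurred in 11 of 30 members with transcripts up to 1000 bases (36.7%, against 26.6% of 894 tested protein-coding genes of that length), in 11 of 26 from 1000 to 2000 bases (42.3% against 50.8%) and in 20 of 22 above 2000 bases (90.9% against 82.8%). Of the 42 members with the letters, 9 were higher and 15 lower, and of the 36 without them, 12 were higher and 6 lower, with median transcript lengths of 1863 and 953 bases. Over all tested genes, 23.5% were called higher and 23.3% lower. The calls of all genes with and without the letters are not given here. Whether the letters or the length play a part in the members' calls was not tested.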
